A study of Caenorhabditis elegans with 24 samples.

Results

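The furrow collagens of Caenorhabditis elegans are the 6 cuticle collagens dpy-2, dpy-3, dpy-7, dpy-8, dpy-9 and dpy-10, whose gene rows were taken by name from a table of 43800 gene entries. All 6 passed the expression filter, as did 15871 entries in all. Transcripts were measured by strand-specific mRNA sequencing of whole hermaphrodites, with 3 libraries in each of 8 groups and 24 libraries in all. The starved groups were the mutant efk-1(ok3609), called efk1 here, the mutant zip-2(tm4248), called zip2, the mutant cep-1(gk138), called cep1, and the wild type N2. They had grown from synchronized L1 larvae on OP50 bacteria to mid-L4, were washed 5 times in M9 buffer and spent 8 h on plates with no bacteria. The fed groups were the same 4 strains frozen at mid-L4, so that starved animals were also 8 h older, and age and food cannot be told apart. The efk-1 product phosphorylates and slows elongation factor eEF2, ZIP-2 is a bZIP transcription factor, and CEP-1 is the worm's p53. Each mutant is represented by a single allele that the whole animal carries.

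The cuticle of the worm is made of collagens secreted by the epidermis, and a new one is built at each moult. Its surface bears circumferential grooves, the annular furrows, and loss of any of these 6 collagens removes the furrows and leaves a short, fat (dumpy) animal. Furrow collagen genes are transcribed as one of the early waves of each larval moult cycle, and the proteins are reported to act together. Furrow loss is also known to switch on osmotic, detoxification and antimicrobial genes in the epidermis, as if the furrows were part of a sensor of cuticle damage.

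In the WBcel235 assembly with the Ensembl annotation, dpy-2 (WBGene00001064) is at chromosome II, 6714292 to 6715971, plus strand, with 5 exons. dpy-10 (WBGene00001072) is close by at 6710149 to 6712227 on the minus strand, with 5 exons. The start sites of this pair face each other across 2064 bases in which 3 other annotated genes lie. Chromosome X holds 3 members, all on the minus strand. dpy-3 (WBGene00001065) spans 2144605 to 2145647 with 2 exons, dpy-7 (WBGene00001069) spans 7536467 to 7537792 with 2 exons, and dpy-8 (WBGene00001070) spans 5148804 to 5150476 with 4 exons. dpy-9 (WBGene00001071) is on chromosome IV, 257403 to 259204, minus strand, with up to 4 exons. Counts of the members ran from 27 to 4931 per library. 2 members overlap another annotated gene, so how their reads were shared out is uncertain. dpy-10 overlaps T14B4.19 on the same strand, which held 5.56% to 13.4% of the counts of the pair, and dpy-8 overlaps C31H2.14 on the opposite strand, which held 0.404% to 40.5%. Counts of dpy-10 were not whole numbers in 6 libraries, and those of dpy-8 in 0. Whether the quantification used strand is not given.

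Total counts ran from 14622266 to 30266282 per library. The targeted genes were examined as a check of the labels, with levels in CPM, counts scaled to the library total after TMM, a correction for library composition. efk-1 averaged 8.31 ± 1.08 CPM in fed efk1 and 34.9 ± 4.67 CPM in fed N2 (SD, n = 3 each), and 11.8 ± 1.26 CPM in starved efk1 and 86.2 ± 16.2 CPM in starved N2. zip-2 averaged 160 ± 33.7 CPM in fed zip2 and 281 ± 44.4 CPM in fed N2, and 219 ± 66.4 CPM in starved zip2 and 314 ± 6.27 CPM in starved N2, neither of them called (edgeR adjusted p 0.258 and 1). cep-1 averaged 40.4 ± 10.9 CPM in the fed libraries labelled cep1 and 31.9 ± 17.1 CPM in fed N2, and 41.2 ± 4.48 CPM and 47.6 ± 1.74 CPM in starved ones, also not called (edgeR adjusted p 0.552 and 0.818). All zip2 libraries lay below the N2 libraries of the same condition for zip-2, while fed cep1 overlapped fed N2 for cep-1. Neither genotype is shown by a called difference, so zip2 and cep1 name libraries by their label. None of the markers of epidermis, intestine, body wall muscle, neurons, germline or sperm was at 0 in any library. Libraries are of whole animals, so fewer epidermal cells and less RNA per cell cannot be told apart.

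Every furrow collagen stood several-fold lower in starved than in fed animals of efk1, zip2 and N2, with no overlap of the groups. Of all genes tested, 23.7% in efk1, 26% in zip2 and 24.1% in N2 were lower with no overlap. dpy-7, whose protein is the usual antibody marker of furrows, had 25.2, 9.11 and 13.1 CPM in the 3 starved efk1 libraries, against 180, 84.2 and 95.2 CPM in the fed ones. In zip2 it had 7.29, 2.44 and 5.99 CPM when starved, against 45.9, 43.1 and 112 CPM when fed. In N2 it had 9.52, 2.23 and 6.06 CPM when starved, against 76.8, 17.3 and 64.7 CPM when fed. The highest starved library lay below the lowest fed one in each of the 3 strains. The log2 fold change of dpy-7, starved over fed, was -2.92 in efk1 (SE 0.70, adjusted p 0.00449), -3.65 in zip2 (SE 0.74, adjusted p 0.00109) and -3.14 in N2 (SE 0.72, adjusted p 0.00279) by edgeR's quasi-likelihood test.

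dpy-2 had 21.1, 11.2 and 12.4 CPM in starved efk1, against 187, 91.2 and 108 CPM in fed efk1. It had 6.33, 3.53 and 6.43 CPM in starved zip2, against 50.2, 45 and 123 CPM in fed zip2, and 8.95, 2.16 and 5.72 CPM in starved N2, against 77, 18.2 and 77.3 CPM in fed N2. Starved and fed libraries were again apart, and dpy-2 had the largest fall of the 6 in all 3 strains, to 0.116, 0.0755 and 0.0986 times the fed level in efk1, zip2 and N2. dpy-3, whose longest annotated transcript of 961 bases is the shortest of the group, had 23.3, 9.68 and 11.3 CPM in starved efk1, against 162, 73 and 84.9 CPM in fed efk1. In zip2 it had 6.25, 2.53 and 6.3 CPM when starved, against 38.5, 38.8 and 79.6 CPM when fed. In N2 it had 7.78, 2.1 and 5.1 CPM when starved, against 70.3, 14.2 and 50.5 CPM when fed. dpy-3 thus kept close to dpy-7 in level, and the order of the libraries was shared in efk1 and N2 but not in zip2.

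dpy-8 and dpy-9 are among the furrow collagens whose mutants are known to hold excess glycerol. dpy-8 had 44.8, 15.4 and 27.6 CPM in starved efk1, against 266, 134 and 147 CPM in fed efk1. It had 11.5, 4.25 and 13.8 CPM in starved zip2, against 65.7, 62.2 and 153 CPM in fed zip2, and 14.6, 4.87 and 12.9 CPM in starved N2, against 112, 28.8 and 95.1 CPM in fed N2. No starved library of these strains reached a fed one of its own strain. dpy-9 had 35.5, 14.6 and 21.6 CPM in starved efk1, against 192, 89.7 and 108 CPM in fed efk1. In zip2 it had 9.25, 5.79 and 10.8 CPM when starved, against 49, 49.3 and 121 CPM when fed. In N2 it had 10.3, 4.94 and 8.99 CPM when starved, against 84.7, 21.4 and 72.8 CPM when fed, again with no overlap.

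dpy-10, known for dominant alleles that serve as a visible marker in genome editing of the worm, had the lowest fed levels of the 6 per kilobase of transcript. It had 20.3, 7.92 and 11.9 CPM in starved efk1, against 132, 65.7 and 63.3 CPM in fed efk1. It had 8.75, 5.06 and 5.49 CPM in starved zip2, against 36.6, 30.1 and 94.4 CPM in fed zip2, and 9.11, 3.58 and 5.68 CPM in starved N2, against 42.4, 13.9 and 48.7 CPM in fed N2. Its fall in N2, -2.51 on the log2 scale with an SE of 0.61 and an edgeR adjusted p of 0.00425, was the smallest of the 6 in that strain.

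**Figure D1:**
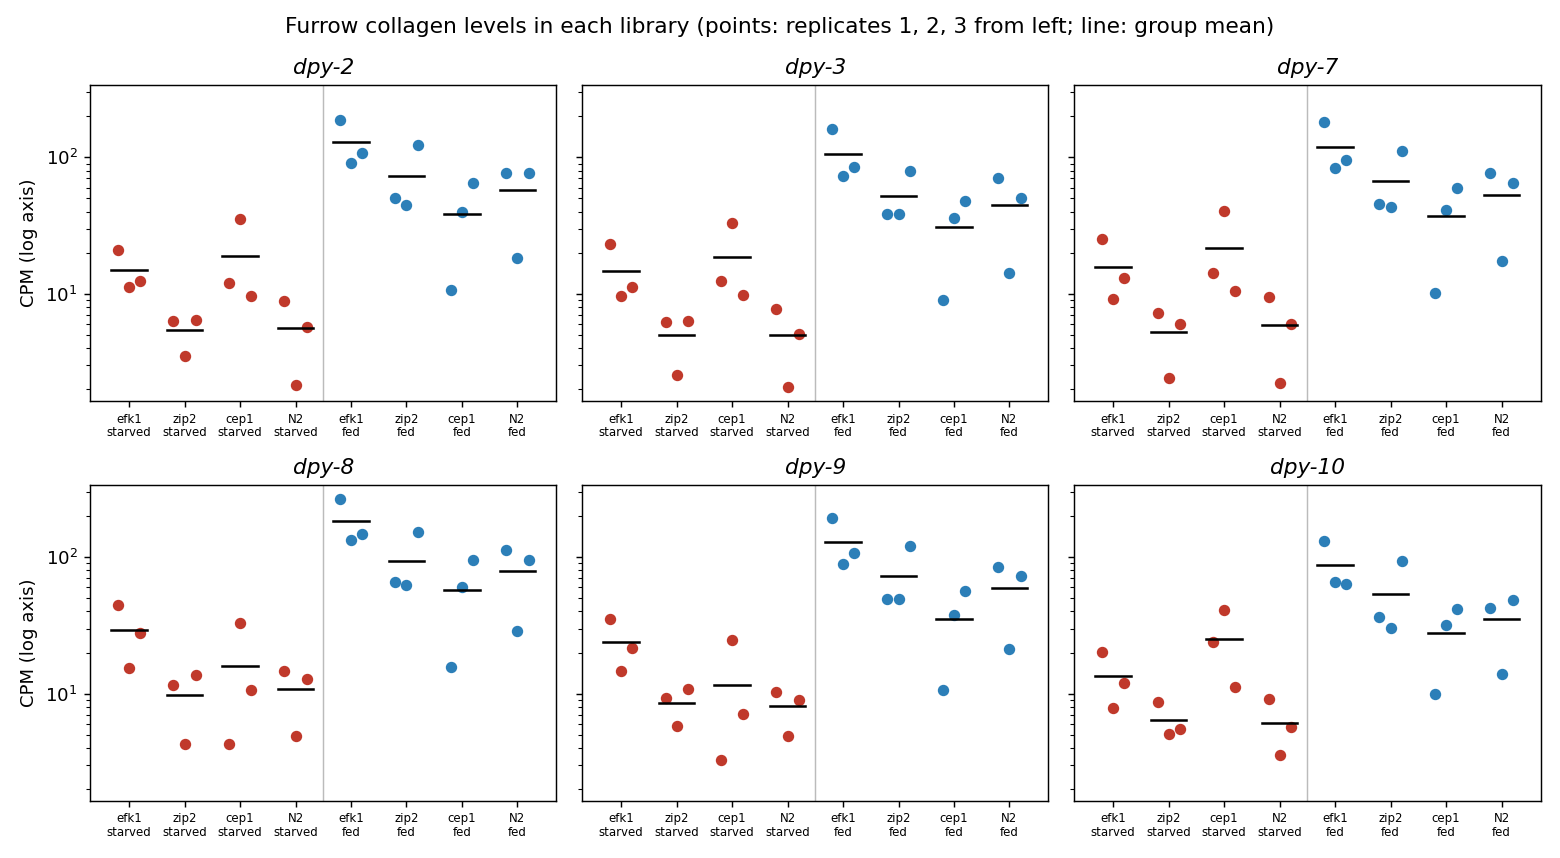
Level of each furrow collagen in every library, in CPM on a log axis, with starved groups (red) left of fed groups (blue), replicates 1 to 3 from left to right as points and the group mean as a line. Starved libraries lie below the fed ones of the same strain in efk1, zip2 and N2, while in the libraries labelled cep1 the 2 conditions overlap for every member.

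All 6 members were called lower after starvation in efk1, where 11.6% of all genes tested were called lower, in zip2, where 16.8% were, and in N2, where 16.4% were. A call is an adjusted p under 0.05 over all 15871 genes. The median log2 fold change of the 6 was -2.78 in efk1, -3.3 in zip2 and -3.01 in N2, against 0.06, 0.01 and 0 over all genes tested. Single members ran from -3.11 to -2.44 in efk1, from -3.73 to -3.05 in zip2 and from -3.34 to -2.51 in N2, and the largest edgeR adjusted p-values were 0.0105, 0.00295 and 0.00633. Leaving out starved efk1 replicate 2 reduced the count of called members in that strain to 4, with edgeR adjusted p 0.0627 for dpy-8 and 0.0613 for dpy-9. Without fed efk1 replicate 1 the count was 5, with edgeR adjusted p 0.0523 for dpy-9. Without fed N2 replicate 2, the lowest of the fed N2 libraries, all 6 members were called in N2.

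The libraries labelled cep1 gave another picture. dpy-2 had 12.1, 35.1 and 9.69 CPM in the starved ones, against 10.7, 39.7 and 64.7 CPM in the fed ones, and dpy-3 had 12.5, 33.1 and 9.86 CPM against 9.02, 35.7 and 48.1 CPM. dpy-7 had 14.3, 40.3 and 10.5 CPM when starved, against 10.2, 41.1 and 59.4 CPM when fed. In these 3 genes starved replicate 2 was as high as a fed library and fed replicate 1 as low as a starved one. dpy-8 had 4.25, 32.9 and 10.6 CPM when starved, against 15.8, 60.1 and 95.2 CPM when fed, and dpy-9 had 3.27, 24.6 and 7.09 CPM against 10.6, 37.6 and 56.8 CPM. dpy-10 had 23.7, 41 and 11.1 CPM when starved, against 9.99, 31.8 and 41.6 CPM when fed, so that its starved libraries spanned the same range as its fed ones.

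None of the 6 was called in that strain, where 16.1% of all genes tested were called lower. The log2 fold changes, starved over fed, were -1.01 for dpy-2, -0.74 for dpy-3, -0.76 for dpy-7, -1.84 for dpy-8, -1.58 for dpy-9 and -0.13 for dpy-10, with SE from 0.57 to 0.70 and edgeR adjusted p-values from 0.0551 (dpy-8) to 0.884 (dpy-10). Their median was -0.89, against 0.01 over all genes tested, and ran from -1.7 without starved cep1 replicate 2 to -0.34 without fed cep1 replicate 3. The count of called members rests on single libraries. Without fed cep1 replicate 1 or without starved cep1 replicate 2, the same pair, dpy-8 and dpy-9, was called lower, with log2 fold changes of -2.31 and -2.03 in the first case and -2.96 and -2.78 in the second. DESeq2 on all libraries also called these 2 genes lower, beside 17.7% of genes, and a fit of these 6 libraries with the replicate number as a block called dpy-8, beside 6.47%. dpy-10 was not called under any of these settings.

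**Figure D2:**
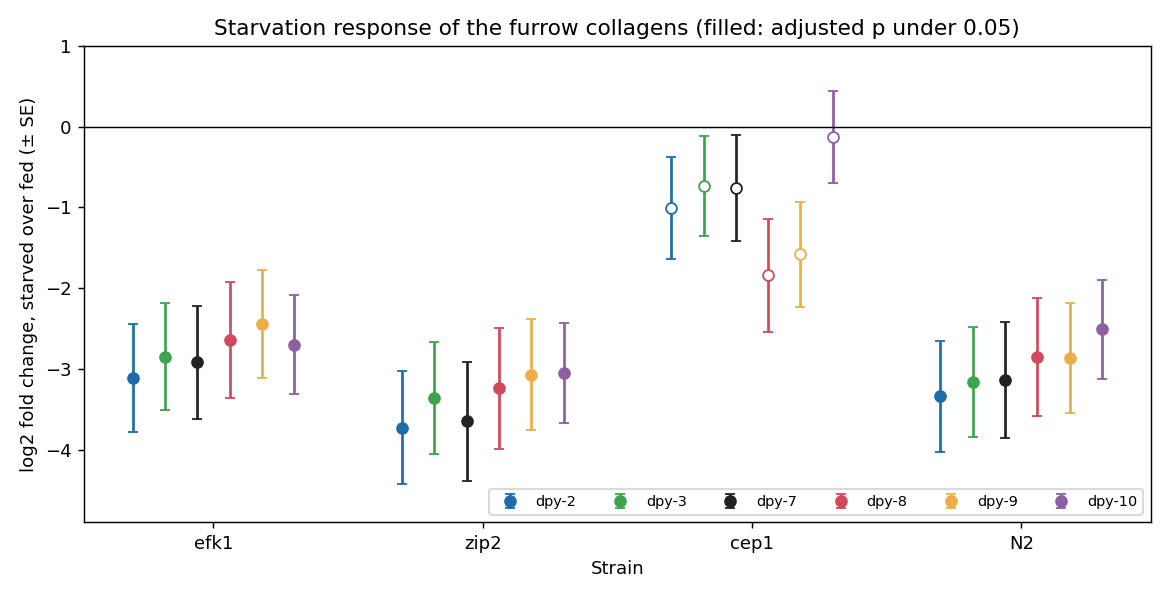
The log2 fold change of each furrow collagen, starved over fed, by strain, with bars of ± 1 SE from edgeR and filled points for an adjusted p under 0.05. The points of efk1, zip2 and N2 lie between -3.73 and -2.44 and are all filled, while those of the libraries labelled cep1 lie between -1.84 and -0.13 and are all open.

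The difference between the strains in starvation response was tested directly as an interaction. Against the response of N2, the response of cep1 differed by a log2 value of 2.33 for dpy-2 (SE 0.90), 2.42 for dpy-3 (SE 0.90), 2.38 for dpy-7 (SE 0.95), 1.01 for dpy-8 (SE 0.97), 1.29 for dpy-9 (SE 0.91) and 2.37 for dpy-10 (SE 0.82). None of these was called, with edgeR adjusted p-values from 0.602 to 0.943 and unadjusted ones from 0.00879 to 0.309. The background was 0% of genes called, since edgeR called 0 genes in the whole table, although 902 had an unadjusted p under 0.05, and DESeq2 called 64. A weaker response in the libraries labelled cep1 is therefore not established for these genes by this test. The interactions of efk1 with N2, in which 0.246% of genes were called, ran from -0.19 to 0.43, and those of zip2 with N2, in which 0% were called by edgeR, from -0.54 to -0.2. None of the 12 was called, with edgeR adjusted p-values of at least 0.986, and their SE of 0.82 to 0.98 leaves room for differences of more than 2-fold. For zip2 with N2, 195 genes of the whole table had an unadjusted p under 0.05, and DESeq2 called 0.

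Compared per kilobase of the longest annotated transcript, levels of different members can be set side by side. In 7 of the 8 groups dpy-8 and dpy-9 were the 2 highest by mean and dpy-10 the lowest. In starved zip2 the margin was within the spread, with dpy-10 at 4.04 ± 1.27 and dpy-2 at 4.1 ± 1.24 CPM per kb. The same held in starved N2, at 3.84 ± 1.75 and 4.24 ± 2.57 CPM per kb. The longest transcript of dpy-10 has 1593 bases, of which 1068 are coding, and levels per coding base were not compared. In fed N2, dpy-9 averaged 56.8 ± 32.1 CPM per kb, dpy-8 52 ± 29.1 CPM per kb and dpy-10 22 ± 11.6 CPM per kb (SD, n = 3). The starved libraries labelled cep1 were the exception, with dpy-3 at 19.2 ± 13.2 and dpy-7 at 18.9 ± 14.1 CPM per kb above dpy-10 at 15.9 ± 9.42 CPM per kb, and with dpy-9 at 11.1 ± 10.8 and dpy-8 at 10.5 ± 9.95 CPM per kb lowest.

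Ratios within a library show the same change in make-up without the spread between libraries that both genes share. The ratios of dpy-8 and dpy-9 still differed between the 3 starved libraries labelled cep1 and were lowest in replicate 1. dpy-8 stood at 0.298, 0.816 and 1.01 times dpy-7 in the starved libraries labelled cep1, against 1.36 to 2.3 times in the other 21 libraries. dpy-9 stood at 0.229, 0.61 and 0.677 times dpy-7 there, against 0.913 to 2.37 times in the other 21. All 3 libraries lay below every other library for both ratios. dpy-2 and dpy-3 kept their proportion to dpy-7 in these libraries, at 0.845 to 0.926 and 0.822 to 0.942 times, within the 0.837 to 1.44 and 0.707 to 1.06 times of the other 21. Outside starved cep1, the ratios of dpy-8 and dpy-9 to dpy-7 were higher by median in starved than in fed libraries, with overlapping ranges. For dpy-8 the median was 1.78 (1.54 to 2.3) in the other 9 starved libraries and 1.48 (1.36 to 1.66) in the 12 fed ones. For dpy-9 it was 1.6 (1.09 to 2.37) and 1.07 (0.913 to 1.24). The ratio of dpy-10 to dpy-7 also moved with food in other strains. It was 1.02 to 1.66 in starved cep1 libraries and 0.808 to 2.07 in the other 9 starved libraries (median 0.939), and 0.553 to 0.984 in the 12 fed ones (median 0.762). These ratios were looked at after the levels had been seen and are given as a description, with no test. Starved cep1 libraries held 31 to 45 counts of C31H2.14, the gene that overlaps dpy-8, which is within the 20 to 122 counts of all libraries.

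**Figure D3:**
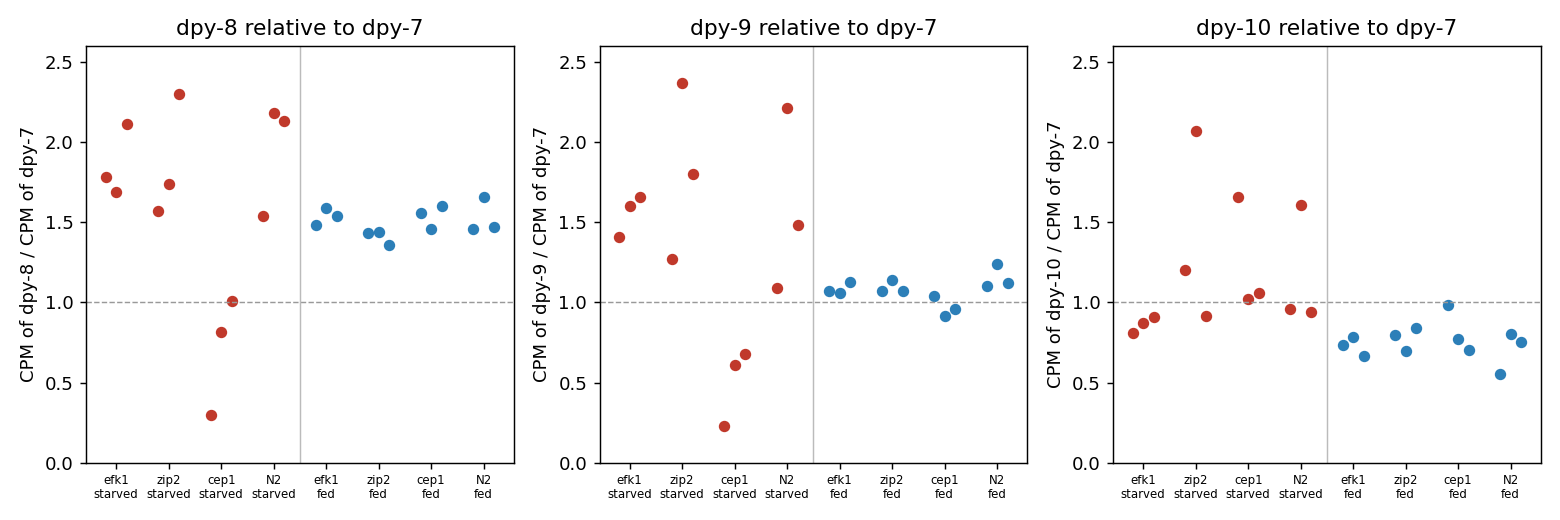
CPM of dpy-8, dpy-9 and dpy-10 divided by CPM of dpy-7 in the same library, with starved groups (red) left of fed groups (blue) and replicates 1 to 3 from left to right. In the starved libraries labelled cep1 the ratios of dpy-8 (0.298 to 1.01) and dpy-9 (0.229 to 0.677) lie below those of all other libraries.

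Over all 24 libraries dpy-2, dpy-3 and dpy-7 had profiles close to each other, and dpy-8 and dpy-9 formed a close pair. dpy-10 was in neither set and lay nearer to dpy-2, dpy-3 and dpy-7 than to the pair. The root mean square difference of centred log2 CPM, a measure in which 0 means the same profile, was 0.13 between dpy-3 and dpy-7, 0.18 between dpy-2 and dpy-7, and 0.23 between dpy-8 and dpy-9. dpy-10 was 0.41 (dpy-3) to 0.47 (dpy-2) from dpy-2, dpy-3 and dpy-7, but 0.8 from dpy-8 and 0.78 from dpy-9. dpy-8 and dpy-9 were 0.53 to 0.64 from dpy-2, dpy-3 and dpy-7. Much of the distance of dpy-8 and dpy-9 from the rest came with the starved cep1 libraries. Without them dpy-8 was as close to dpy-3 (0.19) and dpy-7 (0.21) as to dpy-9 (0.25), and dpy-10 was 0.37 from dpy-8. dpy-9 was then still farther from dpy-2 (0.37), dpy-3 (0.3) and dpy-7 (0.37) than from dpy-8, and was 0.28 from dpy-10. dpy-2 and dpy-10, the neighbours on chromosome II, differed by 0.47. Libraries share their depth and scaling factors among all members, so these values carry no test.

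Among fed animals the 6 collagens were highest in efk1. Fed efk1 libraries lay above all fed N2 libraries for all 6 members, where 12.3% of genes tested were higher with no overlap. Fed efk1 averaged 120 ± 52.4 CPM of dpy-7 and fed N2 53 ± 31.4 CPM (SD, n = 3 each), and the log2 fold changes of the members were 1.12 to 1.32 with SE of 0.58 to 0.69. None was called (edgeR adjusted p 0.561 to 0.742), with 1.51% of genes called in either direction. Fed zip2 overlapped fed N2 for all 6, with log2 fold changes of 0.22 to 0.62, none called beside 1.13% of genes. Fed cep1 libraries also overlapped fed N2, with log2 fold changes of -0.77 to -0.33, none called beside 4.89% of genes (edgeR adjusted p 0.474 to 0.75). Fed cep1 libraries lay below all fed efk1 libraries for the 6 members, where 21.9% of genes tested were lower with no overlap. Those log2 fold changes were -1.89 to -1.65 and none was called (edgeR adjusted p 0.0677 to 0.118), beside 2.85% of genes called lower. Without fed cep1 replicate 3 the called members numbered 4, and DESeq2 called 5, beside 6.23% of genes called lower. Fed cep1 overlapped fed zip2 for all 6, with log2 fold changes of -1.06 to -0.71, none called beside 1.71% of genes. Fed efk1 also overlapped fed zip2, with log2 fold changes of 0.7 to 1.03, none called beside 0.302% of genes.

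Among starved animals, efk1 again stood above N2. The log2 fold changes were 1.4 for dpy-2, 1.55 for dpy-3, 1.4 for dpy-7, 1.43 for dpy-8, 1.56 for dpy-9 and 1.12 for dpy-10. The groups did not overlap for 4 members, where 13.3% of genes were higher with no overlap, and overlapped for dpy-7 and dpy-10. In the unpaired fit none was called (edgeR adjusted p 0.259 to 0.385), beside 0.693% of genes called higher. Starved libraries of N2, efk1 and zip2 with the same replicate number deviated together, and a paired fit of the 6 libraries with the replicate number as a block called all 6 higher. That edgeR fit gave log2 fold changes of 1.08 to 1.54 and adjusted p-values from 5.5e-06 to 0.000483, and called 15.7% of genes higher. A block over all 24 libraries called 0 members, and the pairing itself was read from these same libraries. The shared order is visible in the summed level of the 6 collagens. It was 170, 68 and 97.8 CPM in replicates 1, 2 and 3 of starved efk1, 49.3, 23.6 and 48.8 CPM in those of starved zip2, and 60.3, 19.9 and 44.5 CPM in those of starved N2, with replicate 2 lowest and replicate 1 highest in each. Body wall muscle markers summed to 11200 to 14600 CPM in starved efk1, against 8590 to 10000 CPM in starved N2, with 1 of 6 called higher, and their part in the difference was not tested. Starved zip2 did not differ detectably from starved N2, with log2 fold changes of -0.16 to 0.09 (SE 0.60 to 0.70), none called in either fit beside 1.3% of genes called in the unpaired one and 0.318% called higher and 1.4% called lower in the paired one. Starved efk1 against starved zip2 gave log2 fold changes of 1.04 to 1.56, with no overlap for 5 members, where 8.13% of genes were higher with no overlap, and none called unpaired beside 0.0315% of genes called higher. All 6 were called higher in the paired fit (edgeR adjusted p 1.19e-08 to 0.00338), which called 8.73% of genes higher, and 0 were called with a block over all 24 libraries.

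In starved cep1 libraries, dpy-2, dpy-3, dpy-7 and dpy-10 lay above all starved N2 libraries, where 9.79% of genes were higher with no overlap. dpy-10 alone was called, at 2.04 on the log2 scale with an SE of 0.60 and an edgeR adjusted p of 0.0407, beside 3.33% of genes called higher. dpy-2 had a log2 fold change of 1.75, dpy-3 of 1.88 and dpy-7 of 1.86, with edgeR adjusted p-values of 0.111, 0.0831 and 0.106. dpy-8 and dpy-9 overlapped N2, with log2 fold changes of 0.55 and 0.52, both of which turned negative (-0.53 and -0.63) without starved cep1 replicate 2. The call of dpy-10 was lost when any of the 3 starved N2 libraries, or starved cep1 replicate 1 or 2, was left out. Without starved cep1 replicate 3, dpy-3 was called as well, and DESeq2 called dpy-2, dpy-3, dpy-7 and dpy-10, beside 4.56% of genes called higher. Against starved zip2, the same 4 lay above all libraries, beside 9.31% of genes, and dpy-10 was again the 1 member called, at 1.96 on the log2 scale with an SE of 0.60 and an edgeR adjusted p of 0.0411, beside 4.2% of genes called higher. That call was lost without any 1 of the starved zip2 libraries and without starved cep1 replicate 1 or 2, while without starved cep1 replicate 3 the members called numbered 4. DESeq2 also called 4, beside 5.53% of genes called higher. Against starved efk1, the values ran from -1.03 for dpy-9 to 0.92 for dpy-10, with overlap for all 6 and none called beside 19.5% of genes. Some markers of other tissues also differed in these libraries. Body wall muscle markers summed to 4890 to 8150 CPM in starved cep1, against 8590 to 10000 CPM in starved N2 and 8720 to 13900 CPM in starved zip2. Of 6 tested, 0 were called against N2 and 3 were called lower against zip2. Sperm markers summed to 82.6 to 330 CPM in starved cep1, against 316 to 385 CPM in starved N2 and 314 to 572 CPM in starved zip2. Of 6 tested, 1 (spe-9) was called lower against N2 and 3 against zip2. Genes called lower made up 4.37% of all genes tested against N2 and 6.29% against zip2. Of 6 neuron markers, 1 (unc-119) was called higher against both, with log2 fold changes of 0.79 and 0.81. Of 9 epidermis markers, 0 were called against N2 and 1 (wrt-10) was called higher against zip2, with a log2 fold change of 2.04. They summed to 223 to 286 CPM in starved cep1, 229 to 250 CPM in starved N2 and 186 to 254 CPM in starved zip2. No germline or intestine marker was called in either comparison. The part of these tissue markers in the differences of the furrow collagens was not tested.

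Ordered by mean, the 8 groups ran from fed efk1 through fed zip2 and fed N2 to fed cep1 for all 6 members, with the starved groups below them. Neighbouring groups in this order overlapped, except that starved efk1 did not overlap the next lower group for dpy-2 and dpy-3. Replicates within a group differed widely, and the highest library held 1.73 to 7.73 times the lowest for single members. All 6 members had the same lowest library in 5 of the 8 groups. In starved cep1 they did not, since dpy-8 and dpy-9 were lowest in replicate 1 and the other 4 in replicate 3. Fed N2 replicate 2 held 114 CPM of the 6 together, against 463 and 409 CPM in replicates 1 and 3, and fed cep1 replicate 1 held 66.3 CPM, against 246 and 366 CPM in replicates 2 and 3. Starved cep1 libraries held 70.1, 207 and 58.8 CPM. The same fed libraries were low in other cuticle genes. The body-shape collagens summed to 13300, 5310 and 9230 CPM in fed N2 and to 2440, 5440 and 8020 CPM in fed cep1, and the moult factors to 544, 229 and 577 CPM in fed N2 and to 240, 364 and 509 CPM in fed cep1, in replicate order. Epidermis markers summed to 394, 256 and 405 CPM in fed N2 and to 261, 294 and 352 CPM in fed cep1. Their part in the spread of the furrow collagens was not tested.

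Some epidermis markers also fell after starvation. Genes called lower made up 11.6% of all genes tested in efk1, 16.8% in zip2, 16.1% in cep1 and 16.4% in N2. The list medians of the epidermis markers were -0.26, -0.44, -0.54 and -0.21 on the log2 scale in the same order. Of 9 markers tested, 4 were called lower in efk1, 4 in zip2, 0 in cep1 and 4 in N2. They summed to 272 to 305 CPM in starved efk1 and 490 to 703 CPM in fed efk1, to 186 to 254 CPM in starved zip2 and 316 to 484 CPM in fed zip2, to 223 to 286 CPM in starved cep1 and 261 to 352 CPM in fed cep1, and to 229 to 250 CPM in starved N2 and 256 to 405 CPM in fed N2. The markers that fell in N2 were wrt-2, wrt-10, bus-8 and che-14, with log2 fold changes of -3.23, -3.06, -3.2 and -1.89. The other 5, elt-1, elt-3, lin-26, ajm-1 and nhr-23, were not called in any strain and ran from -0.21 to 0.63 in N2. Germline markers were called higher for 4 of 8 in efk1, 5 in zip2, 0 in cep1 and 2 in N2, where 13.7%, 17.6%, 12.3% and 15.9% of all genes tested were called higher in the same order. They summed to 1840 to 3440 CPM in starved efk1 and 1710 to 1850 CPM in fed efk1, to 2680 to 4980 CPM in starved zip2 and 1680 to 2430 CPM in fed zip2, to 3070 to 4600 CPM in starved N2 and 2220 to 2600 CPM in fed N2, and to 2310 to 5040 CPM in starved cep1 and 1400 to 3560 CPM in fed cep1. Intestine markers summed to 845 to 1200 CPM in starved N2 and 3110 to 3710 CPM in fed N2. Of 7 tested, 1 was called lower in each of the 4 strains and 1 higher in efk1. The 1 called lower was act-5 each time, with a log2 fold change of -3.87 in N2. The list medians were 0.05 in efk1, 0.1 in zip2, -0.21 in cep1 and -0.38 in N2. The part of these lists in the fall of the furrow collagens was not tested.

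Other collagens that shape the body, such as the roller, squat and blister collagens, moved with the furrow group in efk1, zip2 and N2. Of 15 tested, 13 were called lower after starvation in each of the 4 strains, cep1 included, where the median log2 fold change was -3.01. Among all genes tested, 11.6% were called lower in efk1, 16.8% in zip2, 16.1% in cep1 and 16.4% in N2. lon-3, a collagen that affects body length, had 14.9, 2.37 and 18.8 CPM in starved N2, against 315, 103 and 314 CPM in fed N2, and 2.8, 18.9 and 4.21 CPM in starved cep1, against 64.5, 154 and 222 CPM in fed cep1. The other 2, dpy-14 and dpy-17, were called higher in zip2, cep1 and N2. dpy-17 had 195, 239 and 64 CPM in starved cep1, against 2.23, 7.66 and 2.65 CPM in fed cep1, and 12.6, 9.33 and 5.25 CPM in starved N2, against 2.46, 2.38 and 2.81 CPM in fed N2. dpy-14 had 121, 147 and 25 CPM in starved cep1, against 0.244, 2.59 and 0.475 CPM in fed cep1. Both were higher in starved cep1 than in starved N2, with log2 fold changes of 4.2 for dpy-17 (edgeR adjusted p 9.01e-05) and 4.59 for dpy-14 (edgeR adjusted p 0.00176). The starved cep1 libraries thus held more dpy-14 and dpy-17, and no called difference from N2 in the other 13 body-shape collagens.

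Genes of the apical matrix and of meisosomes, the membrane folds beneath the furrows, also fell. Of 8 tested, 6 were called lower in efk1, 8 in zip2, 4 in cep1 and 8 in N2. For this list and the next, the share of all genes called lower was 11.6%, 16.8%, 16.1% and 16.4% in the same order. The 4 called lower in cep1 were mup-4, mlt-4, vab-10 and vab-19, with log2 fold changes of -1.86, -1.35, -1.2 and -0.84. noah-1, noah-2, fbn-1 and let-653 were called lower in efk1, zip2 and N2 but not in cep1. noah-1, a zona pellucida protein of the apical matrix, had 9.47, 4.4 and 8.25 CPM in starved N2, against 71.6, 17 and 88.9 CPM in fed N2, and 50.1, 47.6 and 14.2 CPM in starved cep1, against 16.9, 60.1 and 81 CPM in fed cep1. In starved cep1 against starved N2, noah-1, noah-2 and the fibrillin-like fbn-1 were called higher, with log2 fold changes of 2.33, 1.96 and 2.37 (edgeR adjusted p 0.0287, 0.0472 and 0.0313). Moult and cuticle regulators were called lower for 8 of 13 in efk1, 8 in zip2, 6 in cep1 and 8 in N2. They included the moulting gene mlt-10, with log2 fold changes of -3.01 in efk1, -3.62 in zip2, -2.66 in cep1 and -3.24 in N2, and lin-42, the homolog of the clock gene period, with -2.56, -2.63, -2.31 and -3.1 in the same order. The nuclear receptor nhr-23, a regulator of the moult, was not called in any strain, with 26.8 ± 3.52 CPM in starved N2 and 26.8 ± 2.94 CPM in fed N2 (SD, n = 3 each). In starved cep1, 1 of the 13 (nhr-25, log2 fold change 1.91) was called higher against starved N2, beside 3.33% of genes. Against starved zip2, 2 were called higher (nhr-25 and mlt-11, 2.11 each), beside 4.2% of genes. Against starved efk1, 0 were called higher and 2 lower, beside 12.8% of genes called lower.

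Enzymes that modify and assemble collagen were called lower for 4 of 14 in efk1, 7 in zip2, 8 in cep1 and 7 in N2. The share of all genes called lower was 11.6%, 16.8%, 16.1% and 16.4% in the same order. dpy-18 and phy-2, the catalytic subunits of prolyl 4-hydroxylase, fell in all 4 strains, with log2 fold changes of -2.7 and -2.56 in efk1, -2.98 and -2.74 in zip2, -1.81 and -1.83 in cep1 and -2.87 and -2.72 in N2. Adult collagens were mixed, beside 13.7% of all genes tested called higher in efk1 and 17.6% in zip2. In efk1, 1 of 6 was called lower and 2 higher, in zip2 4 lower and 1 higher, and in cep1 and N2 4 lower each. The higher ones in efk1 were col-19, the adult-specific collagen used as a stage marker, with a log2 fold change of 2.13, and col-129, with 1.76.

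**Figure D4:**
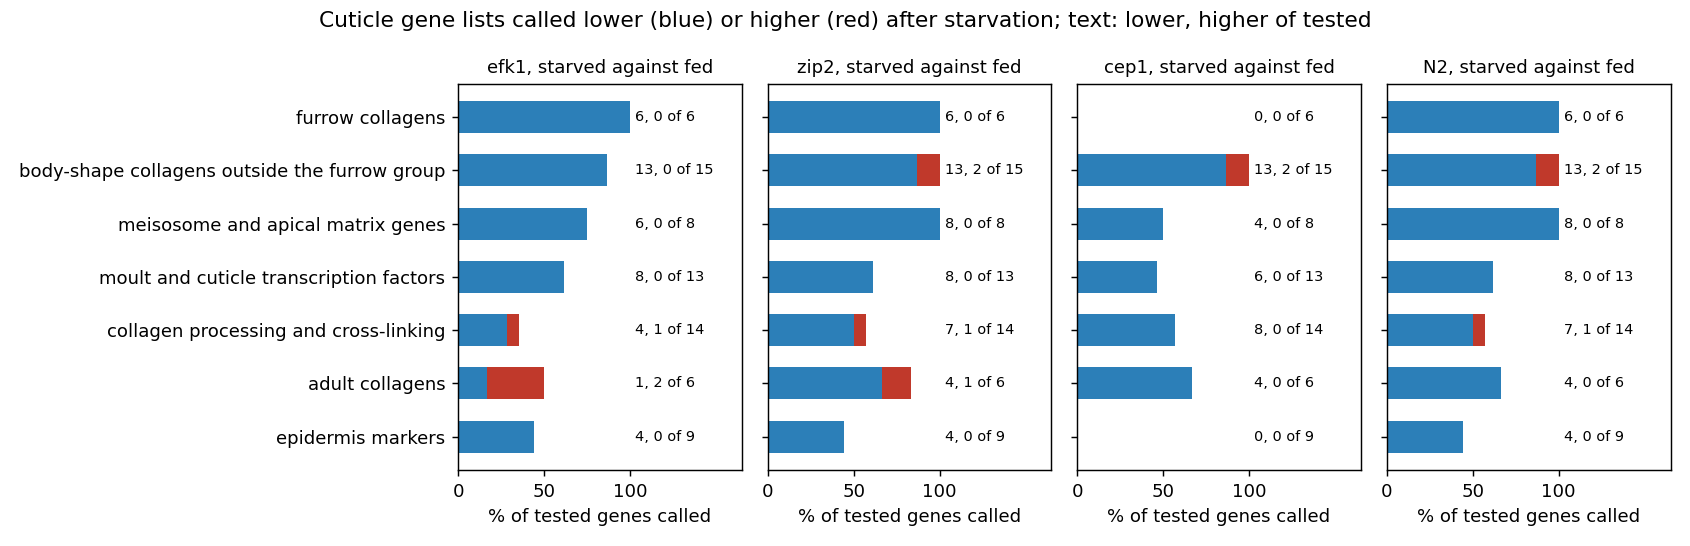
Share of tested genes of each cuticle list that was called lower (blue) or higher (red) after starvation in efk1, zip2, the libraries labelled cep1 and N2, as a percentage, with the counts of lower and higher calls and of genes tested beside the bars. Furrow collagens were called in 6 of 6 cases in efk1, zip2 and N2 and in 0 of 6 in cep1. In every strain, 13 of 15 body-shape collagens were called lower. Among all genes tested, 11.6% were called lower in efk1, 16.8% in zip2, 16.1% in cep1 and 16.4% in N2.

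Genes linked to the response to furrow loss and cuticle damage, regulators of it among them, did not move as 1 group. Of 8 osmotic genes, 4 were called lower and 1 higher in efk1, and 4 lower and 2 higher in zip2. In cep1, 4 were called lower and 1 higher, and in N2 5 lower and 1 higher. Among all genes tested, 11.6%, 16.8%, 16.1% and 16.4% were called lower and 13.7%, 17.6%, 12.3% and 15.9% higher in the same order. gpdh-1, the glycerol-making enzyme that marks the osmotic response, had 2.46, 1.76 and 10.3 CPM in starved N2, against 20, 28.9 and 20.1 CPM in fed N2. hmit-1.1, a transporter of myo-inositol, had 2.15, 1.49 and 2.87 CPM in starved N2, against 12.6, 20.6 and 16.9 CPM in fed N2. Both fell in all 4 strains, while lea-1, a late embryogenesis abundant protein, was called higher in all 4 (log2 fold changes 2.28 in efk1, 3.41 in zip2, 2.56 in cep1 and 2.7 in N2). Of 7 detoxification genes, 2 were called lower and 2 higher in efk1, 3 lower and 2 higher in zip2, 2 lower and 1 higher in cep1, and 3 lower and 2 higher in N2. Of 13 antimicrobial genes tested, 4 were called higher in efk1 and 3 each in zip2, cep1 and N2, and 0 lower, beside 13.7%, 17.6%, 12.3% and 15.9% of all genes called higher in the same order. The antimicrobial peptide gene nlp-28 was among them in each strain, with 10.6, 9.33 and 14.8 CPM in starved N2 against 4.22, 6.72 and 3.35 CPM in fed N2.

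The genes whose profile over the 24 libraries was closest to the mean profile of the 6 collagens, among 10192 other genes whose mean log2 CPM reached 2, were lpr-3, lpr-5, Y37A1B.7, lpr-6 and mltn-9. The root mean square differences were 0.23, 0.23, 0.25, 0.26 and 0.27. The lpr genes encode lipocalin-related proteins of the apical matrix, and mltn-9 is named for its relation to mlt-10. lpr-3 ranged from 21.7 to 52 CPM in starved efk1 and 189 to 404 CPM in fed efk1, from 18 to 75 CPM in starved cep1 and 21.7 to 126 CPM in fed cep1, and from 3.92 to 18.7 CPM in starved N2 and 34.2 to 146 CPM in fed N2. All 5 were called lower after starvation in efk1, zip2 and N2 and none in cep1, which follows from their choice by profile over the same libraries and is given as a description.

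**Figure D5:**
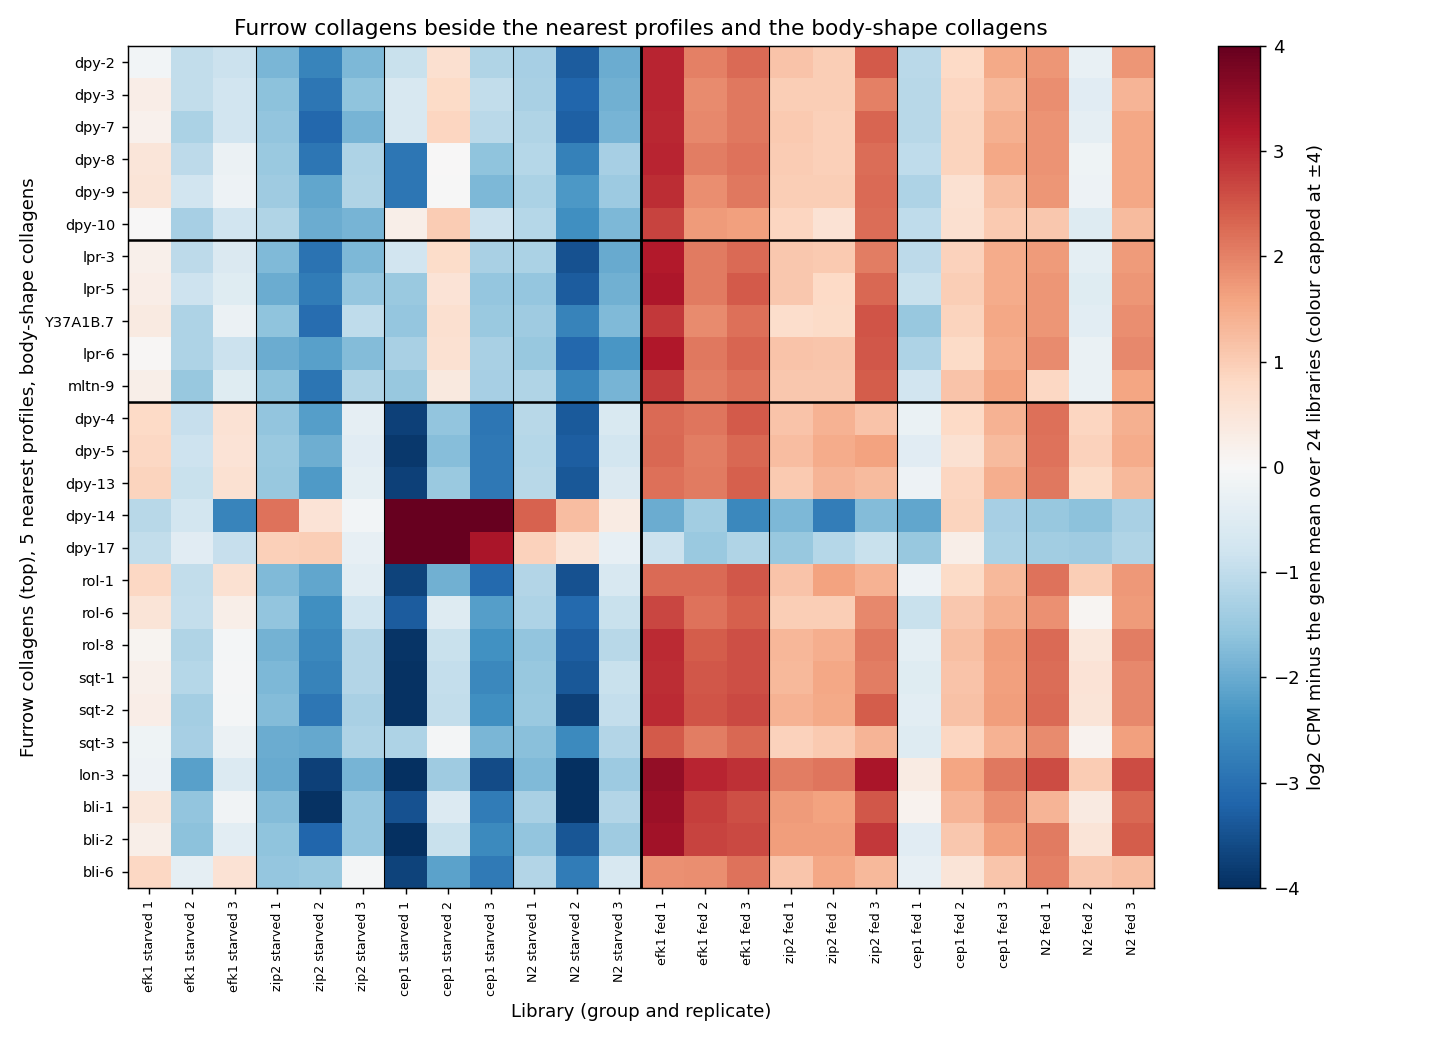
Level of the 6 furrow collagens (top), the 5 genes with the closest profiles and the 15 body-shape collagens in each library, as log2 CPM minus the mean of the gene over 24 libraries, with starved libraries left of fed ones and colours capped at ±4. Fed N2 replicate 2 and fed cep1 replicate 1 hold lower values than their replicates in each of the first 11 rows, and dpy-14 and dpy-17 stand out as high in the starved libraries labelled cep1.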

How the data were processed

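Estimated counts per gene were deposited by the authors for 24 libraries. The submitters' processing notes name Trimmomatic 0.36, Salmon 0.9.1, edgeR and the WBcel235 build, without role or order. Per the labels' protocols, the libraries were strand-specific and read as 75-base paired ends. Of the nonzero values, 8.77% were more than 0.01 away from a whole number, and 20670 entries were at 0 throughout. How reads were shared between overlapping genes is not given in the sources used here. Groups and replicate numbers came from the titles. The labels do not say that replicates came from separate cultures, so p-values measure only the spread between these samples.

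The counts were rounded and fitted with edgeR 4.0.16 in R 4.3.3 after its expression filter (minimum count 10, minimum total 15), which left 15871 genes. TMM scaling and robust quasi-likelihood fits used all 24 libraries with 16 residual degrees of freedom and a common biological coefficient of variation of 29%. The 19 contrasts covered the response to starvation within each strain, all pairs of strains when starved and when fed, and each mutant's response minus that of N2. p-values were adjusted by Benjamini-Hochberg over all genes tested. log2 CPM values used a prior count of 2. Coordinates and transcript lengths came from the Ensembl annotation of WBcel235, whose symbols matched 42102 of the entry names. The steps were checked on simulated counts. Promoter motifs were not analysed here.

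Replicate numbers were checked by correlating deviations from group means. Starved efk1 with N2 gave r of 0.54, 0.75 and 0.39, starved zip2 with N2 0.54, 0.69 and 0.65, and starved efk1 with zip2 0.55, 0.7 and 0.38, so these comparisons were also fitted with the number as a block. The pairing comes from these correlations in the libraries tested, not from a stated batch. Starved cep1 did not share it, with r of 0.12, -0.69 and -0.38 with N2. With efk1 its r was -0.02, -0.68 and -0.07, and with zip2 0.27, -0.62 and -0.46. Alternatives were DESeq2 1.42.0, its size factors, no filter, leaving out each library, fits of only the groups compared, and replicate blocks. Members, gene lists and naming rules (the 4 called genes of a list with the largest fold changes, and the 5 nearest profiles) were chosen with earlier results of these data known. dpy-17, dpy-14, noah-1, nhr-23 and the ratios to dpy-7 are also described beyond those rules.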

Additional observations from a re-analysis of the deposited data

How the results depend on the processing

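Of 1476 recomputed log2 fold changes of single members, 1346 kept direction and call, 40 gained a call, 19 lost one and 71 changed sign. No alternative moved a median over the 6 beyond the 0.89 SD between replicates (pooled over 8 groups). The median of starved against fed cep1 (-0.89) ran from -1.7 to -0.34. That limit is as large as this median, so staying within it does not show that the median is stable. The calls of all 6 members after starvation in zip2 and N2 held under all 12 alternatives. Called members numbered 4 to 6 in starved against fed efk1 when 1 library was left out. Counts of 0 held under every alternative for fed efk1, zip2 and cep1 against N2, starved zip2 against N2, fed cep1 and efk1 against zip2 and the 3 interactions. These counts moved. After starvation in cep1 (0 in all libraries) they were 0 to 2 with 1 library left out, 1 with the replicate block of only these groups (dpy-8) and 2 with DESeq2. For starved cep1 against N2 (1) they were 0 to 2 with 1 library left out, 0 without the filter, 0 with only the groups compared, 0 with the block and 4 with DESeq2. For starved cep1 against zip2 (1) they were 0 to 4, 0 without the filter, 0 with only the groups compared, 0 with their block, 2 with a block over all libraries and 4 with DESeq2. For fed cep1 against efk1 (0) they were 0 to 4 and 5 with DESeq2, and for starved cep1 against efk1 (0) 0 to 1. The block gave 6 for starved efk1 against N2 and 6 against zip2 (0 each with a block over all libraries). Apart from these and the cep1 comparisons named above, no block changed a call of a member. Signs turned for dpy-10 in starved against fed cep1 (0.02 with the block, -0.67 to 0.27 with 1 library left out), for dpy-8 and dpy-9 in starved cep1 against N2 (-0.53 to 1.03 and -0.63 to 0.99) and against zip2 (-0.39 to 1.17 and -0.72 to 0.91, dpy-9 -0.09 with the block), and for dpy-8 in the cep1 interaction (-0.05 to 1.6). With 1 library left out they also turned in comparisons with no member called in all libraries. In fed zip2 against N2 they ran from -0.27 to 0.61 for dpy-2, -0.22 to 0.7 for dpy-3, -0.25 to 0.72 for dpy-7, -0.3 to 0.6 for dpy-8, -0.28 to 0.63 for dpy-9 and -0.07 to 0.93 for dpy-10. In fed cep1 against N2 they ran from -0.74 to 0.05 for dpy-10. In starved zip2 against N2 they ran from -0.41 to 0.44 for dpy-2, -0.33 to 0.46 for dpy-3, -0.54 to 0.32 for dpy-7, -0.47 to 0.21 for dpy-8, -0.16 to 0.3 for dpy-9 and -0.22 to 0.47 for dpy-10, where the block gave 0.03 for dpy-2. In starved cep1 against efk1 they ran from -0.4 to 0.68 for dpy-2, -0.35 to 0.81 for dpy-3 and -0.3 to 0.96 for dpy-7. In the efk1 interaction they ran from -0.13 to 0.72 for dpy-2, -0.19 to 0.75 for dpy-3, -0.29 to 0.71 for dpy-7, -0.23 to 0.62 for dpy-8 and -0.63 to 0.24 for dpy-10. In the zip2 interaction they ran from -0.75 to 0.22 for dpy-2, -0.68 to 0.24 for dpy-3, -0.88 to 0.08 for dpy-7, -0.73 to 0.16 for dpy-8, -0.54 to 0.37 for dpy-9 and -0.86 to 0.14 for dpy-10. The cause was not tested. Counts over the whole table moved more. With 1 library left out, genes called after starvation numbered 2339 to 4093 in efk1 (4024 with all libraries), 3232 to 5820 in zip2 (5460), 2804 to 5189 in cep1 (4505) and 3075 to 4919 in N2 (5132), lowest without replicate 2 of the starved group in efk1, zip2 and N2 and without fed replicate 3 in cep1. The block of only the groups compared gave 3268 in zip2 and 1571 in cep1, where only the groups compared gave 1998. Starved cep1 against N2 (1223) gave 278 to 1806, 3 with only the groups compared and 32 with the block, and starved cep1 against zip2 (1665) gave 517 to 2480, 11 and 5. Starved efk1 against N2 (306) gave 161 to 316, 179 and 4255 in the same order and 522 with DESeq2, and against zip2 (12) gave 7 to 37, 2 and 1699, and 40 with DESeq2. Fed cep1 against efk1 (1419) gave 237 to 3110 and 2345 with DESeq2, fed cep1 against N2 (776) 205 to 2127, 157, 86 and 1665, and the cep1 interaction (0) 0 to 33, 13 with a block over all libraries and 64 with DESeq2. Depth did not leave any member without counts, and the spread between 3 libraries per group limits what a missing call shows.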
